A study of Mus musculus with 16 samples.

Results

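MC38 is a mouse colorectal carcinoma line of the C57BI6 strain that grows in immunocompetent mice of that strain, and its copy number profile was read from the 1 array whose cell line label was MC38, out of 16 arrays of 16 tumour lines. Each array set Cy5-labelled DNA of 1 cultured line (red) against Cy3-labelled mouse genomic DNA from Merck (green). All values are log2 ratios of line to reference, so that gains lie above 0 and losses below. The labels name no treatment, and each line was sampled once from culture, so no value below has a replicate, and precision is limited by having a single array. Besides MC38, the C57BI6 lines were LL2 (lung), 4 arrays of B16 (melanoma, labelled B16F0 ECAC, B16F0 ATCC, B16F10 NCI and B16F10 ATCC), Hepa1-6 (liver), PAN02 (pancreas), TRAMPC1 and TRAMPC2 (prostate), EL4 (blood) and ID8 (ovary). The lines of other strains were CT26 (colon), 4T1 (breast) and Renca (kidney), all Balb/C, and P815 (mast cells, DBA/2). TRAMPC1 and TRAMPC2 were labelled male and all other lines, MC38 included, female.

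Tumour genomes gain and lose pieces of chromosomes, and array comparative genomic hybridisation reads this as a shift in the ratio of tumour DNA over normal DNA along each chromosome. Copies shared by the whole genome do not show, because each array is centred on its own autosomal median. A short shift that lines of the same inbred strain share, and lines of other strains lack, can also be an inherited difference between the strain and the reference animal. For that reason most shifts in MC38 are given with the values in the other C57BI6 lines, which were counted as 6 families: LL2, B16, Hepa1-6 with PAN02, TRAMPC, EL4 and ID8.

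The arrays carried 220668 autosomal probes, of which 220644 entered the segments of MC38, at a median spacing of 7827 bases on the mm8 build. The line channel was well above background at 99.8% of spots, and the noise between neighbouring probes was 0.31 in log2, within the range of 0.22 to 0.41 over the 16 arrays. The errors given below are standard errors over the probes of a segment. They measure noise along the genome of 1 culture, not the spread between cultures.

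MC38 was altered over a large part of its genome by many partial-chromosome changes, and no autosome was gained or lost along at least 90% of its probes. The 19 autosomes divided into 265 segments. Segments with a mean at or above 0.3, called gains, held 19.2% of the autosomal probes, and segments at or below -0.3, called losses, held 12.8%. The 69 gained segments covered 414 Mb, with a median level of 0.48 over their probes, and the 51 lost segments covered 364 Mb, with a median level of -0.38. The losses were shallow for the most part. The threshold mattered here, since 40 segments holding 15.97% of the probes had means between 0.25 and 0.35 in size. The segments just inside it lay on chromosome 10 (-0.31), chromosome 5 (0.31) and chromosome 15 (0.31), and those just outside on chromosome 9 (-0.30 and -0.29) and chromosome 4 (0.29). At a threshold of 0.2 the altered share was 53.6%, and at 0.5 it was 10.73%.

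Part of this profile was shared with the other C57BI6 families over the same probes. The likeness was not confined to that strain. Over bins of 1 Mb, the correlation with MC38 ran from 0.20 in Hepa1-6 with PAN02 to 0.51 in LL2 among the 6 families. Among the 4 families of other strains it ran from 0.19 in P815 to 0.36 in CT26 and 4T1. Of the 31 gains of at least 5 Mb, 17 lay at least 0.3 above the median of the 6 families, and these covered 216 of 350.0 Mb. Of the 25 losses of that length, 6 lay at least 0.3 below it, and these covered 54.5 of 323 Mb. When the median of the 6 families was subtracted probe by probe before segmentation, the gained share was 13.2% and the lost share 6.85%. Of the probes gained in the profile as measured, 53.1% were gained after subtraction, and of those lost, 35.8% were lost after it. The gains thus stood out from the family median over more of their length than the losses did.

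**Figure D1:**
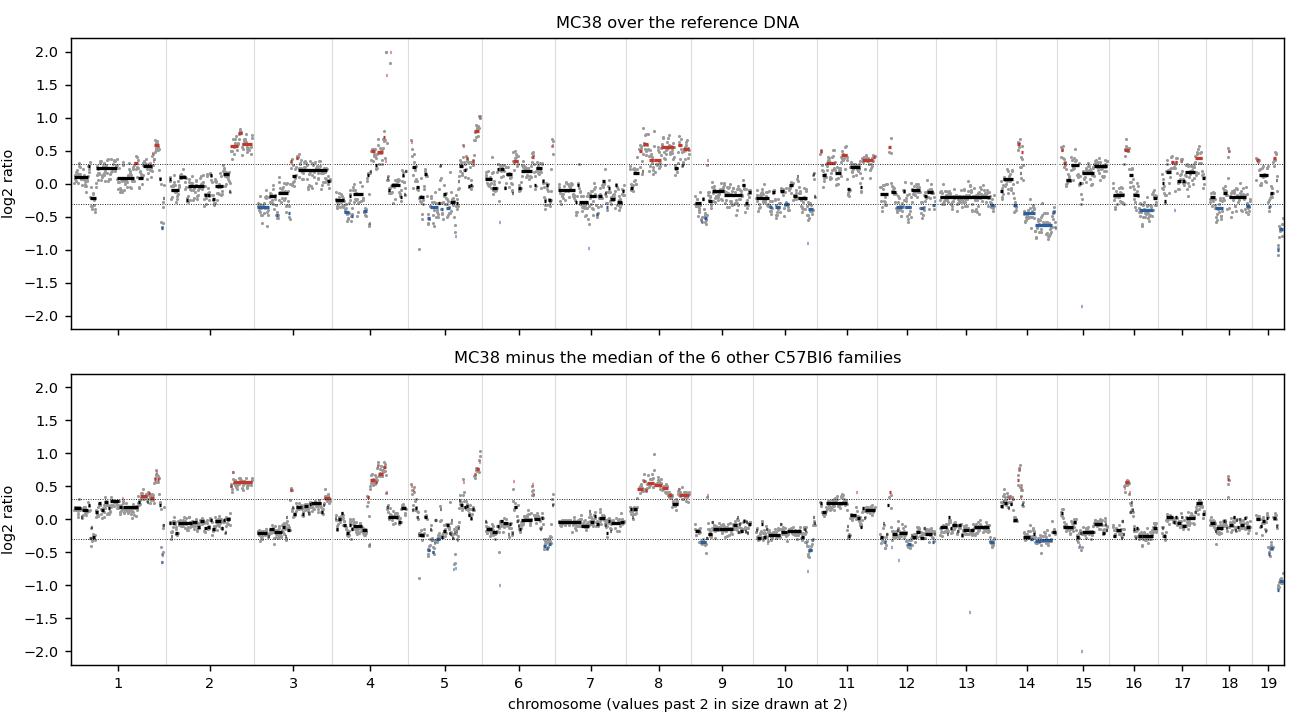
Autosomal profile of MC38, with chromosomes in order along the horizontal axis and the log2 ratio on the vertical axis. Grey points are means of 1 Mb bins and lines are segments, red at or above 0.3, blue at or below -0.3 and black between; the upper panel is MC38 over the reference DNA and the lower panel is MC38 after subtraction of the median of the 6 other C57BI6 families. The end of chromosome 2, much of chromosome 8 and the end of chromosome 5 are raised and the end of chromosome 19 is lowered in both panels, while the lost share falls from 12.8% to 6.85%.

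Chromosome 8 was the most widely gained autosome. Its median was 0.42, and 78.7% of its probes lay in gained segments and none in lost ones. In the other C57BI6 families its median was -0.20 in Hepa1-6 with PAN02, -0.02 in B16, -0.01 in ID8, 0.04 in LL2, 0.08 in EL4 and 0.29 in TRAMPC. MC38 was therefore above all 6 families, with TRAMPC the nearest. Chromosome 11 followed, with a median of 0.28 and 59.5% of its probes gained, against 0.04 to 0.22 in the 6 families. CT26, the other large-bowel line, had 0.15 on chromosome 8 and -0.17 on chromosome 11. The other lines outside the strain had 0.30 (4T1), 0.14 (Renca) and -0.10 (P815) on chromosome 8. On chromosome 11 they had 0.20, -0.11 and 0.004.

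Chromosome 14 was the most widely lost, with a median of -0.31 and 62.3% of its probes in lost segments. That median was within the range of the families, which ran from -0.31 to 0.03, and 4 of the 6 were at -0.26 or below. Chromosomes 9, 10 and 13 of MC38 had medians of -0.21, -0.23 and -0.24, each below all 6 families. Their lowest family medians were -0.15, -0.16 and -0.19, so the gaps were small, and the medians were not tested. Lines of other strains were as low or lower on 2 of these chromosomes. On chromosome 9 CT26 was at -0.23 and Renca at -0.36, with P815 at -0.04 and 4T1 at 0.12. On chromosome 13 Renca was at -0.39 and 4T1 at -0.21, with CT26 at -0.05 and P815 at 0.10. On chromosome 10 these lines ran from -0.22 in P815 to 0.15 in Renca. The medians of the 14 other autosomes of MC38 lay within the range of the families.

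**Figure D2:**
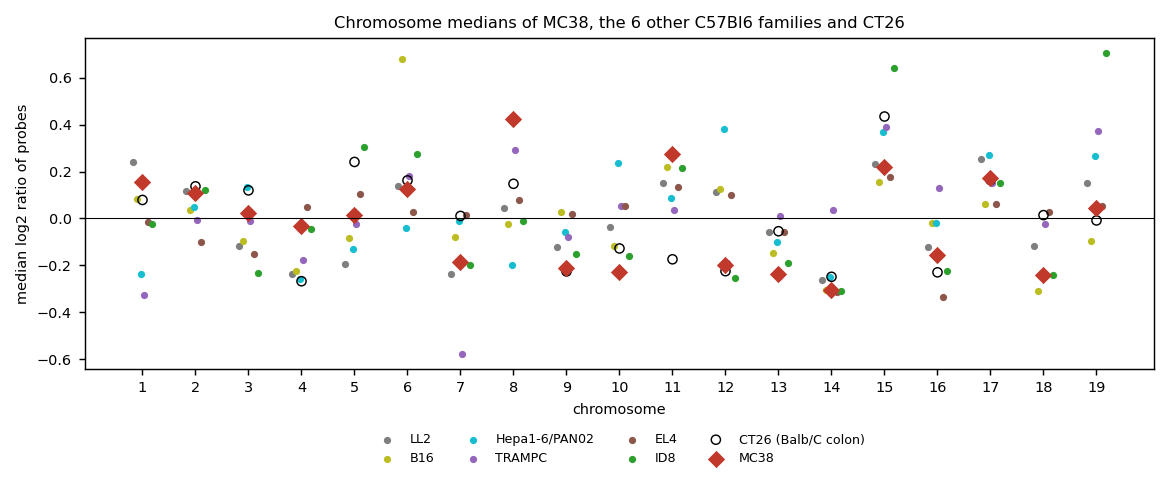
Median log2 ratio of the probes of each autosome, with the chromosome on the horizontal axis; red diamonds are MC38, small coloured points the 6 other C57BI6 families and open circles CT26. MC38 is the highest of the C57BI6 points on chromosomes 8 and 11 (0.42 and 0.28) and the lowest on chromosomes 9, 10 and 13 (-0.21, -0.23 and -0.24).

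The longest altered segment was the loss on chromosome 14 from 78740441 to 116412276 (37.7 Mb, 2495 probes), at -0.63 ± 0.01 (SE over probes). Over the same probes the families were at -0.09 in TRAMPC, -0.29 in Hepa1-6 with PAN02, -0.32 in LL2, -0.34 in B16, -0.39 in EL4 and -0.39 in ID8, and CT26 was at -0.39. Every family was thus on the same side, and MC38 was lower than each of them. A second loss on this chromosome, from 54842050 to 78727598 (23.9 Mb), was at -0.45 ± 0.01 against a family median of -0.22. Before these losses lay a gain from 40107769 to 47361525 (7.25 Mb), at 0.61 ± 0.02, where the families ran from -0.19 to 0.18. Renca, of another strain, was at 0.39 over this gain, and CT26, 4T1 and P815 were from -0.15 to -0.06.

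The next loss in length was on chromosome 16 from 59170069 to 89700445 (30.5 Mb), at -0.40 ± 0.01, with EL4 lower still at -0.46 and TRAMPC at 0.14. The same chromosome carried a gain from 28063066 to 39270025 (11.2 Mb), at 0.52 ± 0.01, which no other C57BI6 family shared at 0.3. Of the other strains, Renca was at 0.56 there, and CT26, 4T1 and P815 were from -0.21 to -0.05. Chromosome 3 was lost from 3007185 to 27038254 (24.0 Mb) at -0.35 ± 0.01. EL4 was at -0.90 there, CT26 at -0.30, ID8 at -0.29 and the other families from -0.18 to 0.12. Chromosome 5 was lost from 43071658 to 62015794 (18.9 Mb) at -0.36 ± 0.01, with LL2 at -0.29 and ID8 at 0.22. Renca was lower there, at -0.48, and the other families ran from -0.15 to 0.44. Chromosome 18 was lost from 13572240 to 31303514 (17.7 Mb) at -0.37 ± 0.01, with B16 at -0.35. 4T1 was lower there, at -0.48, and the other families ran from -0.29 to 0.15. The losses on chromosomes 3, 5 and 18 were close to the threshold, and with each array centred on its mode they stood at -0.31, -0.31 and -0.33.

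The longest gain was on chromosome 8 from 70582050 to 99365073 (28.8 Mb, 2919 probes), at 0.56 ± 0.01, with the families from -0.06 in Hepa1-6 with PAN02 to 0.41 in TRAMPC. Chromosome 2 was gained from 134845666 to its last probe at 181918277, in 3 adjoining steps. They stood at 0.57 ± 0.01 to 151807494, at 0.77 ± 0.01 to 158735985 and at 0.60 ± 0.01 to the end (23.1 Mb). In the middle step the families ran from 0.04 in EL4 to 0.31 in ID8. Of the other strains, Renca was at 0.63 in that step, and CT26, 4T1 and P815 were from -0.03 to 0.25. In the last step the families were at -0.33 in EL4, -0.05 in TRAMPC, 0.04 in Hepa1-6 with PAN02, 0.06 in B16, 0.12 in LL2 and 0.14 in ID8, so MC38 did not overlap them. Chromosome 11 was gained from 16235843 to 36255186 (20.02 Mb) at 0.32 ± 0.01, against -0.10 to 0.19 in the families, and from 93728529 to 116545614 (22.8 Mb) at 0.35 ± 0.01. Over the second of these all 6 families were also above 0, from 0.16 to 0.29.

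Whether MC38 differed from the other C57BI6 families was tested in bins of 1 Mb with limma, with MC38 as 1 sample against 6 families. Of 2376 bins, 0 (0%) passed an adjusted p of 0.05, with 0% higher and 0% lower in MC38, and the lowest adjusted p was 0.211. Bins at an unadjusted p under 0.05 were more often higher than lower in MC38, and they lay chiefly on chromosomes 8, 2, 4, 5 and 19. MC38 was higher in all of those on chromosomes 8 and 2 and in most on chromosome 4. It was higher in some and lower in others on chromosome 5, and lower in all on chromosome 19. The fit assumes that the single MC38 array varies like the other families, and a count of 0 with 1 array on a side does not show that the profiles are alike. The scan date in the file headers put the 16 arrays on 2 days, 6 on the first and 10 on the second, MC38 among the latter. With the scan day as a block 0 bins passed (235 at an unadjusted p under 0.05), and within the scan day that held MC38 0 passed (203 unadjusted). Of 17 fits run, 16 called 0 bins. The exception was a normexp background correction in place of the processed signals, which called 538 (320 higher and 218 lower, 897 unadjusted). Under it the SD of bin values fell in all 6 families, from 0.29 to 0.083 in ID8, where it fell most, and from 0.26 to 0.24 in LL2, where it fell least. In MC38 it was 0.33 before and 0.37 after. No bin is called different here on that fit alone.

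Because the planned test called none, a descriptive rule was chosen after the data were seen: bins in which MC38 lay beyond every other C57BI6 family by at least 0.3. It took 111 bins above (4.67% of the 2376) and 23 below (0.968%), in 24 runs. The rule selects on the difference itself, so the values below describe and do not test it, and no bin in any run had an adjusted p under 0.211. The counts depend on single families: without TRAMPC 182 bins lay above, without LL2 36 lay below and without B16 38 lay below.

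The longest run was on chromosome 2 from 135000001 to 175000000 (40 bins), where MC38 averaged 0.61 and the families from -0.28 to 0.15. A further 4 bins, from 178000001 to 182000000, averaged 0.61 in MC38 and from -0.07 to 0.11 in the families. On chromosome 5 the 13 bins from 139000001 to 152000000 averaged 0.84 in MC38, with the families from -0.10 to 0.34. The segments there rose in steps towards the end of the chromosome, from 0.35 ± 0.01 (134156378 to 139291849) to 0.80 ± 0.01 (139297722 to 148971849) and 1.01 ± 0.02 (148991529 to 152002764). CT26 was also raised over these segments, at 0.53, 0.43 and 0.49, as were ID8, at 0.46, 0.34 and 0.34, and P815, at 0.26, 0.50 and 0.59. The other C57BI6 families ran from -0.12 to 0.23 over them, and 4T1 and Renca from -0.13 to 0.24.

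Chromosome 19 held 14 of the 23 bins below, and 12 of them formed 1 run from 50000001 to 62000000, at an average of -0.76 in MC38 and from -0.30 in EL4 to 0.68 in ID8 among the families. Its segments were at -0.996 ± 0.02 from 50071644 to 52800330 (2.73 Mb) and -0.69 ± 0.01 from 52823763 to 61316020 (8.49 Mb). ID8 was at 0.60 and 0.73 over the same probes, so the 2 lines differed in opposite directions from the reference there. Other lines were low there too: Renca was at -0.62 and -0.37, EL4 at -0.32 and -0.28 and P815 at -0.32 and -0.10. The remaining C57BI6 families ran from -0.14 to 0.39 over the 2 segments, and CT26 and 4T1 from -0.03 to 0.29. On chromosome 16 the 9 bins from 30000001 to 39000000 averaged 0.54, with families from -0.25 to 0.16. On chromosome 14 the 4 bins from 43000001 to 47000000 averaged 0.59, with families from -0.21 to 0.12. On chromosome 18 the 3 bins from 42000001 to 45000000 averaged 0.48 with families from -0.27 to 0.06, and CT26 was at 0.44 there.

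Chromosome 4 held 33 bins above every family and also the lowest segment of the whole profile. From 79345838 to 88726048 (9.38 Mb) it was gained at 0.50 ± 0.01, from 93574289 to 105970047 (12.4 Mb) at 0.48 ± 0.01 and from 105976634 to 109811184 (3.83 Mb) at 0.71 ± 0.02. The stretch between the first and second, from 88763392 to 93547005, stood at 0.29, just under the threshold. In the 23 bins from 89000001 to 112000000 the families averaged from -0.30 to 0.03 and CT26 -0.72, against 0.55 in MC38. The end of this run overlaps the strain block that begins at 111579573, described below, so the values of that block enter these averages. Up to the block, the segments of MC38 in this run stood between 0.29 and 0.71. Before the gain, and apart from it by a segment at 0.19, lay a loss of 2.46 Mb, from 74562574 to 77023171, at -0.59 ± 0.02. Other lines were low there too: Hepa1-6 with PAN02 was at -0.41, TRAMPC at -0.34, B16 at -0.31, P815 at -0.36, 4T1 at -0.53, CT26 at -0.57 and Renca at -0.71, whereas LL2, EL4 and ID8 were at -0.12, -0.11 and -0.02.

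Inside this gained stretch, 5 neighbouring probes from 88738012 to 88759744 (0.022 Mb) fell to a mean of -5.92 ± 0.41. In MC38 they were at -6.36, -4.44, -5.67, -6.38 and -6.76, in order along the chromosome. MC38 DNA did not give a signal well above background at any of them, so only a bound holds, and it was at least 28.1-fold below the reference. The 3 neighbouring probes on the left were, from the nearest outwards, at 0.24, 0.79 and -0.56, and those on the right at -0.21, 0.64 and 1.12. The drop in MC38 thus ended at the adjoining probe on either side. With a normexp background correction the 5 probes averaged -1.72. The same 5 probes averaged -6.23 in B16, -5.77 in P815, -5.63 in LL2, -5.35 in CT26, -5.28 in ID8 and -3.67 in 4T1. They averaged -1.43 in Renca, -0.49 in Hepa1-6 with PAN02, -0.37 in TRAMPC and -0.03 in EL4. In B16, LL2, ID8, CT26, 4T1 and P815 neighbouring probes on at least one side of the 5 were low too, from -2.36 to -6.66 at the 3 probes to the right. Among the families low at all 5 probes (MC38, B16, LL2, ID8, CT26 and P815), MC38 had the narrowest low stretch. EL4, near 0 over the 5, was at -6.35 at the next probe to the right, where MC38 was at -0.21.

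**Figure D3:**
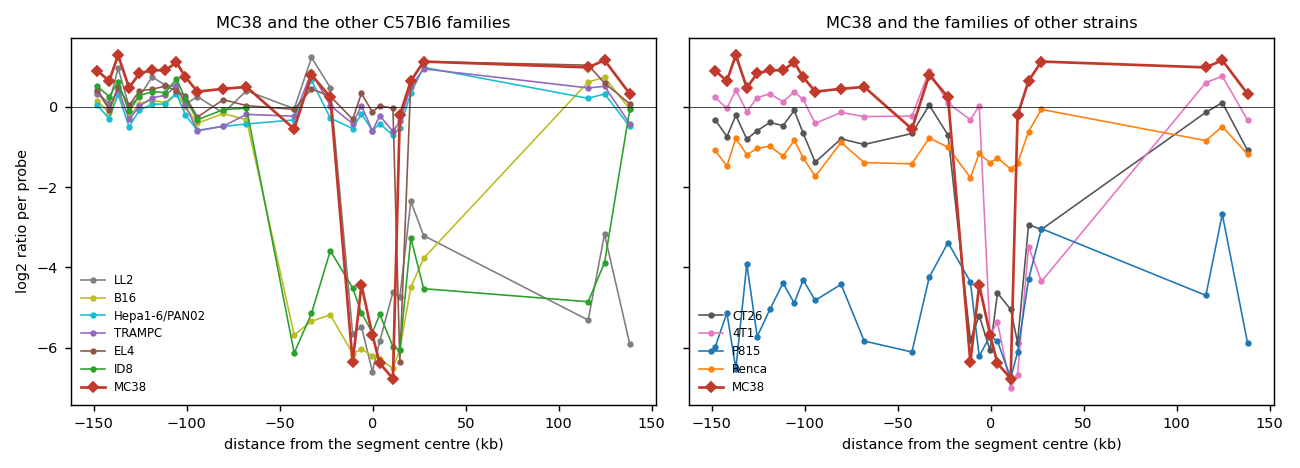
Log2 ratio of each probe within 150 kb of the centre of the lowest segment of MC38, on chromosome 4, with distance in kb on the horizontal axis; red diamonds are MC38, the left panel adds the other C57BI6 families and the right panel the families of other strains. The 5 central probes of MC38 lie between -6.76 and -4.44, while its flanking probes lie at -0.56 or above.

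Altered segments shorter than 5 Mb, called focal, numbered 64. They were sorted by the level of the other 10 families over the same probes: 7 were past 0.3 in MC38 alone, 7 followed the strain (in at least 5 of the 6 other C57BI6 families and at most 1 of the 4 families of other strains), 9 were present on all arrays and 41 in some families. Over most focal segments of MC38, at least 1 other family was thus also past 0.3 in the same direction. That does not make the change focal in the other family, whose level can be part of a wider shift. B16, for example, was at 0.55 over a gain of 1.02 Mb on chromosome 6, and its median over that whole chromosome was 0.68. With a level of 0.5 in place of 0.3 counting as present in another family, 23 were in MC38 alone and 23 in some families.

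The 7 focal segments past 0.3 in MC38 alone were 5 gains and 2 losses, from 0.19 to 3.83 Mb long. The deepest was a loss on chromosome 10 from 113928854 to 114415215 (0.486 Mb, 48 probes), at -0.90 ± 0.03. The families there were at -0.30 in B16, -0.18 in TRAMPC, -0.16 in LL2, -0.11 in ID8, -0.07 in EL4 and 0.19 in Hepa1-6 with PAN02. It adjoined a shallower loss of 11.6 Mb at -0.38 ± 0.01, to 126001373. The gain of 3.83 Mb on chromosome 4 named above, at 0.71 ± 0.02, was the highest. Next was a loss on chromosome 6 from 33216808 to 33672684 (0.456 Mb), at -0.57 ± 0.05, where B16 was at 0.72. The others were gains at 0.34 on chromosome 4 (109821557 to 111570775), 0.34 on chromosome 3 (73388012 to 76581703), 0.35 on chromosome 9 (30181737 to 31119871) and 0.50 ± 0.21 on chromosome 4 (112114745 to 112304639). The last had the widest error of the 7, stood at 0.29 with normexp, under the threshold, and adjoined the strain block described below.

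Some deep focal segments fell outside that class because 1 or more other families passed 0.3. The loss on chromosome 5 from 19616652 to 19857445 (0.241 Mb, 33 probes) was at -1.88 ± 0.07, against -0.60 in B16, -0.43 in LL2, -0.21 in TRAMPC, -0.19 in Hepa1-6 with PAN02, 0.01 in EL4 and 0.22 in ID8, and Renca was at -0.52. With normexp it stood at -1.16. A loss on chromosome 15 from 47783948 to 48134653 (0.351 Mb, 17 probes) was at -1.84 ± 0.08, with EL4 at -0.31 and the other C57BI6 families from 0.02 to 0.46. Gains of this kind were on chromosome 6 from 102572230 to 103589623 (1.02 Mb, 49 probes) at 1.10 ± 0.04, with B16 at 0.55, and on chromosome 8 from 55104300 to 56275479 (1.17 Mb) at 0.90 ± 0.03, with TRAMPC and 4T1 both at 0.38. The losses on chromosomes 5 and 15 were each more than 1 log2 unit below every other C57BI6 family. The segments on chromosomes 15, 6 and 8 were chosen for this paragraph after their values were seen. So were the other segments outside the naming rule: the gained steps of chromosomes 2, 4 and 5, the gains on chromosomes 14 and 16, the losses at the end of chromosome 19 and the stretches named on chromosome X.

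The strain class lay mostly on chromosome 4, where a block from 111579573 to 112104237 was high in every C57BI6 family and below 0 in every family of another strain. Its 3 segments were at 3.93 ± 0.35, 5.55 ± 0.24 and 4.38 ± 0.26 in MC38. The reference signal was not well above background at 42.9%, 86.7% and 63.6% of their probes, so the ratios are bounds: MC38 was at least 11.9-fold, at least 14.7-fold and at least 13.3-fold above the reference. With normexp the 3 stood at 1.51, 1.26 and 1.43. Over the widest of them, LL2 was at 2.93, EL4 at 3.20 and B16 at 4.06, whereas CT26, 4T1, P815 and Renca ran from -0.85 to -0.58. A further segment on this chromosome, from 121473470 to 121858499 (0.385 Mb), was at 3.33 ± 0.29 in MC38, from 2.88 to 3.14 in the 6 families and from -1.54 to -1.13 in the other strains. Its reference signal was not well above background at 38.5% of the probes, so MC38 was at least 8.42-fold above it, and with normexp the segment stood at 1.28. On chromosome 1, from 173351486 to 173405431 (0.054 Mb, 10 probes), MC38 was at -1.74 ± 0.22 and the 6 families from -2.31 to -1.67, against -0.01 to 0.15 in the other strains. The C57BI6 and the other strains did not overlap in any of these segments.

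Segments on chromosomes 8 and 7 were also far from 0 in all C57BI6 families but passed 0.3 in more than 1 family of another strain, which put them among those in some families. On chromosome 8 from 22521623 to 23016260 (0.495 Mb), MC38 was at 2.28 ± 0.38 and the 6 families from 1.65 to 2.23, with 0.06 to 0.37 in the other strains. On chromosome 7 from 37887916 to 37909600, MC38 was at -2.14 ± 0.30 and the 6 families from -2.58 to -1.73, but P815 was also at -1.89 and Renca at -0.41. A segment on chromosome 4 from 112322107 to 112885265 (0.563 Mb) divided the C57BI6 lines themselves: MC38 was at 2.96 ± 0.37, B16, Hepa1-6 with PAN02, TRAMPC and ID8 from 2.43 to 2.995, and LL2 and EL4 at 0.05 and 0.03. The reference was not well above background at 40% of its probes, so MC38 was at least 5.46-fold above it. The segment stood at 1.91 with dim probes left out and at 0.42 with normexp.

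Segments present on all arrays included a loss on chromosome 2 from 77680396 to 77822062 (13 probes), at -1.94 ± 0.10 in MC38 and from -2.10 to -1.63 in the other 10 families. A gain on chromosome 3 from 91238803 to 91307734 was at 2.10 ± 0.26 in MC38 and from 1.53 to 2.21 in the others, and with normexp it stood at 0.44 in MC38. A gain on chromosome 5 from 62046391 to 62093143 was at 1.71 ± 0.65 in MC38 and from 1.71 to 2.44 in the 6 C57BI6 families, and with normexp it stood at 0.30 in MC38. A loss on chromosome 7 from 47457642 to 47476273 was at -1.36 ± 0.14, with those families from -1.79 to -0.97. On chromosome 11 from 116564047 to 116580851, MC38 was at -1.67 ± 0.06, like the 6 C57BI6 families (-2.04 to -1.59), while CT26, 4T1, P815 and Renca were at -5.71 to -5.02. These segments were present in every line over a reference DNA that all arrays shared, though on chromosome 11 at a different level in the 2 sets of strains. The cause of these segments was not tested.

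**Figure D4:**
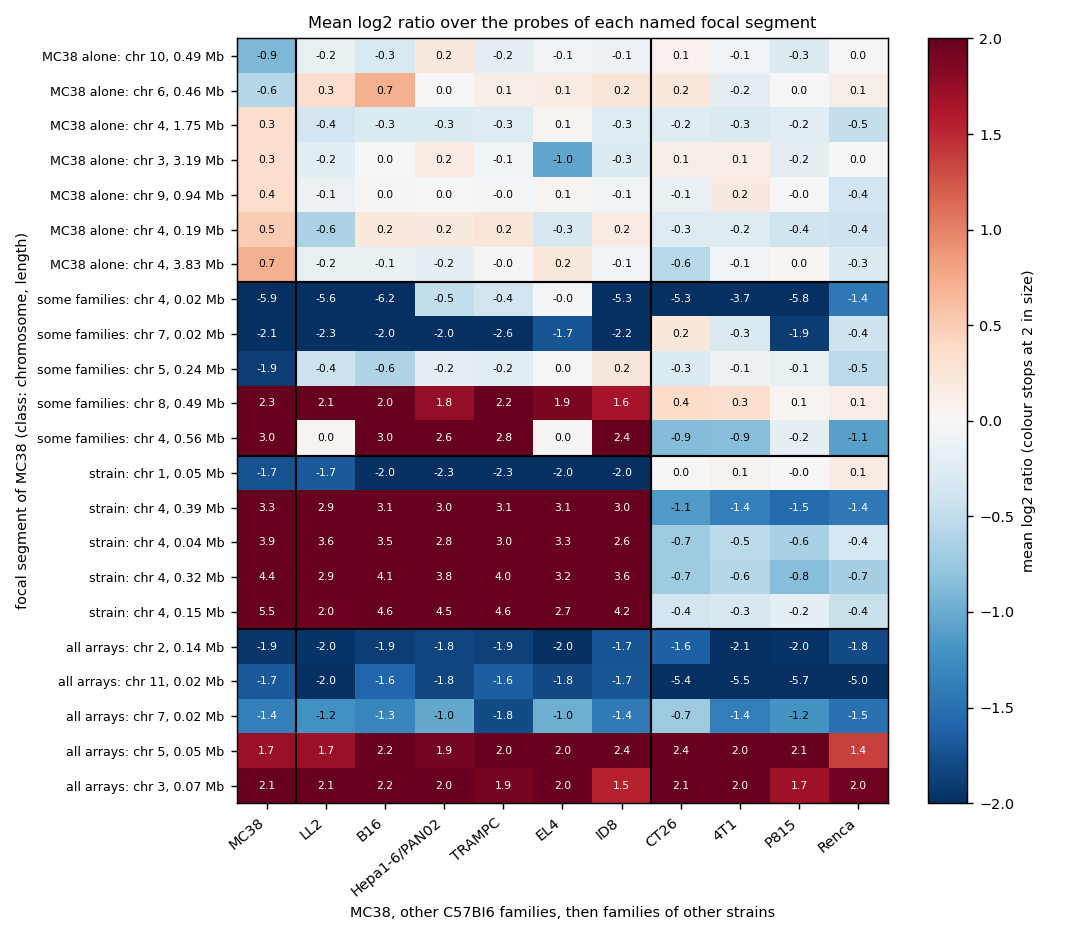
Mean log2 ratio of MC38 and the 10 other families over the probes of each named focal segment, written in each cell and shown as colour; rows are segments of MC38 labelled with class, chromosome and length, and columns are families. The 7 segments of the top block are past 0.3 in MC38 only, whereas the strain block is past it in MC38 and the 6 other C57BI6 families.

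The segments of MC38 met at 246 autosomal breakpoints, of which 115 had no breakpoint of another family within 50 kb and 43 had one in at least 5 other families. The median step was 0.32 among the 115 and 1.77 among the 43. A breakpoint among the 115 is not always a step seen in MC38 only, because the count asks for a called boundary nearby. On chromosome 10, between 92144815 and 92151453, MC38 stepped by 0.31 and the C57BI6 family median by 0.29 across the same segments. On chromosome 1, between 37041469 and 37059995, the steps were -0.49 and -0.05. Chromosome 5 was the most broken by this count, with 29 breakpoints of which 21 were not near one in another family. Chromosome 4 had 30, of which 7 were not near one, and chromosome 13 had 1. The number of breakpoints fell to 120 when the penalty for a new segment was doubled, so these counts depend on how readily small steps are accepted.

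The largest step between segments of at least 100 probes was on chromosome 19, from 0.06 to -0.996 across a gap of 36.0 kb between the probes at 50035642 and 50071644. The median of the other C57BI6 families stepped by -0.11 across the same segments. On chromosome 14 the step from -0.33 to 0.61 between 40096832 and 40107769 coincided with a breakpoint in 5 other families, 4 of them C57BI6, and the median of all 6 C57BI6 families stepped by 0.22. On chromosome 6 the profile went from -0.25 to 0.58 between 145430846 and 145581486, and on chromosome 3 from -0.44 to 0.34 between 73376845 and 73388012. A pair of breakpoints on chromosome 4 enclosed the loss of 2.46 Mb: from 0.13 to -0.59 between 74546875 and 74562574, and from -0.59 to 0.19 between 77023171 and 77030607. Chromosome 1 dropped from 0.08 to -0.67 between 190298399 and 190306381. The remaining 3 of the 10 largest steps were on chromosome 12 (0.70, from 20105498 to 20127914), chromosome 16 (0.69, from 28034953 to 28063066) and chromosome 18 (-0.69, from 44947558 to 44962657). Except for the step on chromosome 14, none of the 10 lay within 50 kb of a breakpoint in another family. CT26 stepped by -0.50 across the segments on either side of the chromosome 18 position.

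**Figure D5:**
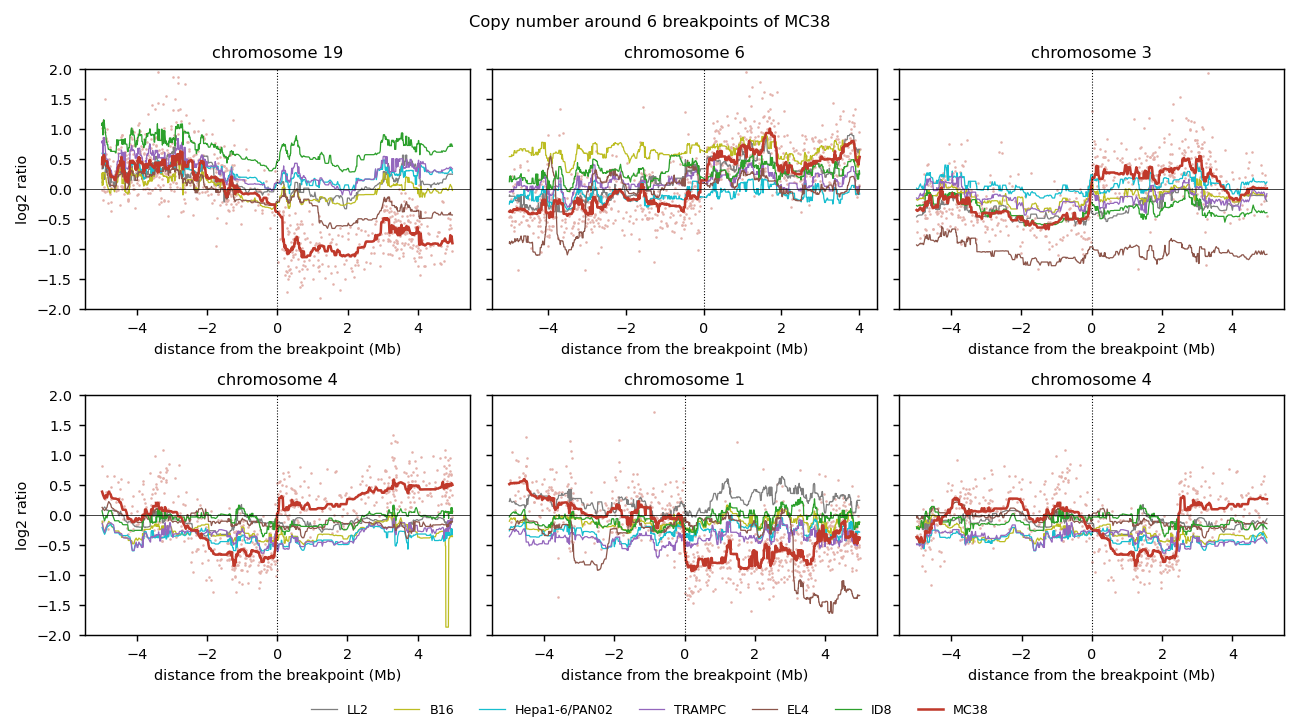
Log2 ratio within 5 Mb of 6 breakpoints of MC38, with distance from the breakpoint in Mb on the horizontal axis; pale points are single probes of MC38 (those past 2 in size are not drawn), the red line is the running median of MC38 and the thin lines are the 6 other C57BI6 families. MC38 drops at the centre from 0.06 to -0.996 on chromosome 19 and from 0.08 to -0.67 on chromosome 1, with no step of that size in the other families at that point.

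Chromosome X of MC38 had a median of -0.79, between ID8 at -0.34 and B16F0 ATCC at -1.28, with the male-labelled TRAMPC1 and TRAMPC2 at -1.09 and -0.98. It was uneven along its length. The segment from 155078056 to 165044388 was at -1.67 ± 0.01 against a C57BI6 family median of -0.85, and that from 134900465 to 140979062 was at -0.20 ± 0.01 against -0.84. A short segment from 125518245 to 125674833 (23 probes) fell to -4.84 ± 0.28, where MC38 was not well above background at 65.2% of the probes and lay at least 15.0-fold below the reference, and the family median was -1.10. Chromosome Y had a median of -0.87 in MC38 and 3.13 and 3.14 in TRAMPC1 and TRAMPC2.

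No gene was measured: probes carry positions but no gene names, and gene positions on their build were not used here, so genes are placed by chromosome alone. The mostly gained chromosomes, 8 and 11, held 10.8% of the autosomal probes and 11.6% of the autosomal genes in the RefSeq table, against which the counts below are to be read. Of 22 colorectal cancer genes, 5 lie on chromosome 11, which was mostly gained: Trp53, the tumour suppressor that responds to DNA damage, Sox9 and Axin2 of the Wnt pathway, and the growth factor receptor genes Egfr and Erbb2. Gains held 59.5% of the probes of chromosome 11, and its segments from 61980953 to 93720389, at -0.08, 0.25 and -0.05, were not called gained. Whether any of these 5 genes lies in a gained segment was not determined. The other 17 lie on chromosomes where neither gains nor losses held most probes. Among these, Apc, the gatekeeper of the Wnt pathway, and Smad2 and Smad4, which carry TGF-beta signals, lie on chromosome 18, with 27.8% of probes lost and a median of -0.24. That median was within the range of the other C57BI6 families, from -0.31 to 0.03, and whether these genes lie in a lost segment was not determined. Of 16 genes of antigen presentation and interferon response, Nlrc5, an activator of MHC class I genes, lies on chromosome 8 and Irf1 on chromosome 11, and the other 14 on chromosomes of mixed state. Of 6 checkpoint ligands only Lgals9 lies on a mostly gained chromosome, and of 7 mismatch repair and proofreading genes none does. Cd274 and Jak2 lie on chromosome 19, where 30.8% of probes were gained and 23.5% lost.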

How the data were processed

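The arrays are 2-colour genome tiling arrays, and their spot intensity values were deposited as made by Agilent Feature Extraction, version 10.7.3.1 per the file headers. The deposited files also give a log10 ratio of red over green per spot. The deposited value table is in log2 and differed from those ratios, converted to log2, by at most 5.06e-05. Its column for MC38 had a median of -0.0069.

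Control spots and outlier-flagged spots (0.0775% on the MC38 array) were left out, repeat spots of a probe were averaged, and log2 of the processed red over green intensity was centred on the autosomal median of each array. Segments came from an exact change point search with squared-error cost, a penalty of 6 noise variances multiplied by the log of the autosomal probe count, at least 5 probes, and probes limited to 3 noise SDs of a running median of 5. For probes not well above background, the bound took whichever was higher, the probe's own signal or the dimmest signal that passed on that array. Arrays of a family were averaged, and Hepa1-6 and PAN02 were counted as 1 family because their profiles were nearly the same. For shared breakpoints, each array was instead segmented on its own and the breakpoints of a family were pooled. B16, TRAMPC and Hepa1-6 with PAN02 thus had more chances to share a breakpoint than families of 1 array. Bins of 1 Mb with at least 20 probes were compared with limma 3.58.1 (lmFit and eBayes, Benjamini-Hochberg at 0.05) in R 4.3.3, with 17 fits in all. The code was tested on simulated data.

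The named segments were the 10 longest altered, the 10 largest focal ones in MC38 alone, the 5 largest in each other focal class and the 10 largest steps between segments of at least 100 probes. The members and lists were chosen with earlier results of these data known. The planned rule that names bins past the test's threshold gave none, and the rule used in its place, a margin of 0.3 beyond every family, was chosen after seeing the data. Normexp (offset 50) used the median spot signals, since no mean signals are in the columns used here. Segmentation used Python 3.11.15 and numpy 2.4.6.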

Additional observations from a re-analysis of the deposited data

How the results depend on the processing

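The altered share moved most with the threshold and with what the arrays share. At 0.2 it was 53.6% (gained 31.32%, lost 22.28%), at 0.5 it was 10.73% (7.941% and 2.786%), and after subtraction of the C57BI6 family median it was 20.04% with 6.851% lost. Under mode centring, normexp, a doubled penalty, a minimum of 10 probes, the deposited value table, and with dim probes left out or outlier-flagged spots kept, it stayed within 27.17% to 41.48%. The 64 focal segments were 41 at a threshold of 0.5, 25 with the penalty doubled and 113 after subtraction. Those in MC38 alone (7) were 11 at 0.2, 4 at 0.5, 3 with the penalty doubled, 22 with normexp, 27 after subtraction and 23 with 0.5 in other families. The strain class (7) was 3 with the penalty doubled, 3 with normexp and 0 after subtraction. The class on all arrays (9) was 2 with the penalty doubled, 5 with a minimum of 10 probes, 1 with normexp and 0 after subtraction, and the class in some families (41) was 21 at 0.5, 17 with the penalty doubled, 86 after subtraction and 23 with 0.5 in other families. Subtraction removes what the other C57BI6 families share by its construction. Breakpoints (246, of which 115 had none of another family within 50 kb) were 120 and 73 with the penalty doubled, and 423 and 323 after subtraction.

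Bins called by limma were 538 with normexp and 0 in the other 16 fits, leave-one-out included (0 to 0). Bins above every family were 228 with normexp and 112 to 182 with 1 family left out, and bins below were 114 and 24 to 38. 3 named segments changed sign after subtraction: chromosome 1 from 173351486 (0.308), chromosome 5 from 62046391 (-0.316) and chromosome 11 from 116564047 (0.084), all in classes shared by the C57BI6 families. Apart from the settings named, the cause of these changes was not tested. With dim probes left out, the lowest segment on chromosome 4 had no value. No paired analysis was possible because each line had 1 array and the labels give no replicate numbers.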
